A study of Mus musculus with 37 samples.

Results

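Brown adipose tissue of the 2 parental strains of the BXD family, DBA/2J and C57BL/6J, is compared here transcript by transcript, as the expression in DBA/2J minus that in C57BL/6J. These are 2 of the 37 arrays of the data set, and the comparison covers all 41155 probe sets that are not array controls. The other 35 arrays, 1 for each BXD strain, serve as the check. All mice were males of 29 weeks per the labels, fed Harlan 2018 chow for life and fasted overnight, and none carried an engineered allele. Each array holds evenly pooled RNA of about 5 mice of 1 strain, so an array is a strain mean, neither parent has a replicate, and no p-value can be given for a parental difference. Values are in rescaled units, since each array had been brought to an average of 8 with a standard deviation (SD) of 2. The log base is not given in the sources used here, so differences are given and no folds.

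BXD strains are recombinant inbred lines. They descend from crosses of C57BL/6J and DBA/2J, and inbreeding has fixed in each line 1 parental allele at nearly every locus. A transcript whose level is set by a single strong variant is known to fall near one parent in some strains and near the other in the rest. Brown adipose tissue burns fatty acids to release heat through the mitochondrial uncoupling protein UCP1, and it also makes fatty acids from glucose when food is at hand. A difference was counted where the parents lay at least 1 unit apart and the brighter parent lay above 7.94 units, the 95th percentile of 1128 probe sets of olfactory receptors, which served as the background. It was called inherited where at least 8 of the 35 strains lay on each side of the parental midpoint.

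Both pools had the profile of brown fat. *Ucp1* was at 15.50 units in C57BL/6J and at 15.48 in DBA/2J, within the strain range of 14.82 to 15.69. *Cidea*, a lipid droplet protein of brown adipocytes, was at 14.67 and 14.83. Skeletal muscle transcripts were present in both, with a mean over 16 muscle genes of 12.52 units in C57BL/6J and 12.23 in DBA/2J against a strain range of 9.51 to 13.09. The parental arrays correlated at Pearson's *r* = 0.980 across probe sets, and probe sets do not replicate one another. The median difference over all gene symbols was 0.02 units.

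Of the 41155 probe sets, 256 (0.622%) were at least 1 unit higher in DBA/2J and 334 (0.812%) at least 1 unit lower, 590 (1.43%) in all. The olfactory receptor probe sets, taken without a background limit, give the spread of this pair of arrays at low signal, and 8 of 1128 (0.709%) were at least 1 unit apart. Their absolute difference had a median of 0.19 units and a 99th percentile of 0.93. Without the background limit, 1003 of all 41155 probe sets were at least 1 unit apart. The noise of bright transcripts was not measured. With the brightest probe set standing for each of 24657 gene symbols, 150 genes (0.608%) were higher in DBA/2J and 113 (0.458%) lower. By probe set more transcripts were lower than higher in DBA/2J, and by gene more were higher. No gene symbol is given for 187 of the 590 probe sets, and 61 belong to 1 receptor family described further on, all of them lower. Probe sets with the same values on every array, counted once, leave 546 profiles. Some genes have many probe sets that read short stretches, and these could disagree: of 52 probe sets of *Anapc1*, 1 was past 1 unit upwards and 5 downwards.

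**Figure D1:**
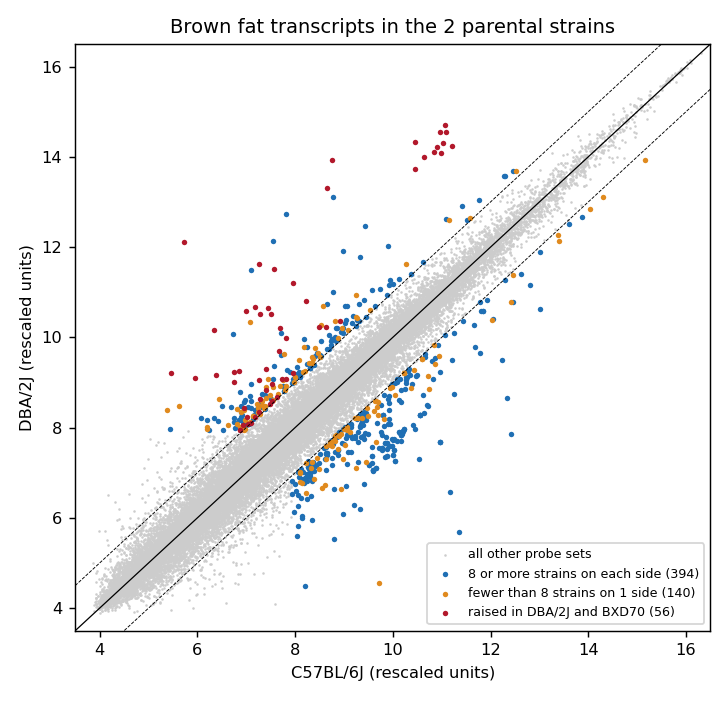
Each point is a probe set, with its value in C57BL/6J on the x axis and in DBA/2J on the y axis, both in rescaled units. Dashed lines mark a difference of 1 unit, and colours mark the 590 probe sets past it as inherited, not inherited, or raised in DBA/2J and BXD70 together. The last group lies from 1.01 to 6.39 units above the line of equal values, and inherited differences such as *Mela*, 4.91 units above it, lie in the same region.

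Of the 590 probe sets, 396 (67.1%) met the rule for an inherited difference, 136 higher and 260 lower in DBA/2J. Over all 41155 probe sets 70.1% had at least 8 strains on each side of the parental midpoint, so this share is no result about the large differences. The rule had a threshold: 25 of the probe sets had exactly 8 strains on the smaller side and 23 had exactly 7. In 91 of the 590 (15.4%) the strains were also separated, meaning that at most 3 of the 35 lay in the central part when the span between the parents was cut into 3 equal parts, and in 42 no strain lay there. Among the 2142 probe sets that were 0.5 to 1 unit apart the separated share was 6.4%. Among all 20754 probe sets above the background it was 35.3%, but the central part narrows with the parental difference, so that figure cannot be set against the others. Counted by gene, 164 differences were inherited (74 higher and 90 lower in DBA/2J) and 37 of them were separated.

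The largest inherited difference among named genes was that of *Mela*, annotated as a melanoma antigen. *Mela* was at 7.82 units in C57BL/6J and at 12.73 in DBA/2J, and the strains ran from 7.04 in BXD43 through a median of 12.75 to 15.41 in BXD69. With 21 strains on the DBA/2J side, 14 on the C57BL/6J side and an empty stretch of 4.26 units between them, the strains fell into 2 clusters. C57BL/6J itself lay just below the background limit of 7.94 units.

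*H2-Ea-ps* is the gene of the class II major histocompatibility chain E alpha, which C57BL/6J mice are known not to transcribe because its promoter is deleted in their haplotype. Here it was at 7.55 units in C57BL/6J and at 12.14 in DBA/2J. The strains reached from 6.66 in BXD75 through a median of 7.59 to 13.62 in BXD80, with 11 on the DBA/2J side, 24 on the other and none within a gap of 3.67 units. The transcripts of the partner chain and of the other class II molecule did not follow this pattern: *H2-Eb1* was at 10.65 in C57BL/6J and 10.08 in DBA/2J, and *H2-Aa* at 10.65 and 10.51.

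*Rufy4*, which encodes a RUN and FYVE domain protein of the autophagy pathway, was at 8.77 units in C57BL/6J and 13.12 in DBA/2J. Its strains ran from 8.65 in BXD45 to 13.41 in BXD75 with a median of 12.49, and 19 lay near DBA/2J, 16 near C57BL/6J and none in a gap of 2.93 units. *Gpt2*, the mitochondrial alanine aminotransferase that links pyruvate to glutamate, was at 9.90 and 12.03. Among the strains it ranged from 9.26 in BXD90 through 9.98 to 12.50 in BXD85, 15 on the DBA/2J side and 20 on the other, with a gap of 1.26 units. Its strains therefore fell into 2 clusters, as those of *Rufy4* did. *Snord53*, a small nucleolar RNA, was at 9.34 and 11.79, with 15 strains beside DBA/2J, 20 beside C57BL/6J and none in the central part.

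Other transcripts higher in DBA/2J had strains spread along the whole interval. *Rbp7*, a retinoid-binding protein of fat, was at 8.99 in C57BL/6J and 11.92 in DBA/2J, and the strains reached from 8.99 in BXD68 through 10.65 to 12.12 in BXD80 with 12 of 35 in the central part. *Ear11*, a ribonuclease of eosinophils and macrophages, was at 6.74 and 10.09 with strains from 5.80 to 10.62, 6 of them in the middle. *Lrrc8b*, a subunit of the volume-regulated anion channel, was at 9.42 and 12.47 with strains from 9.33 to 12.90. *Ptprf*, a receptor tyrosine phosphatase that acts on insulin signalling, was at 8.77 in C57BL/6J and 2.24 units higher in DBA/2J, with 15 strains in the central part. *Snord13* was at 7.11 and 11.48, with 9 strains on the DBA/2J side and 11 in the middle. All of these passed the count of strains on each side, but more than 3 strains of each lay in the central part.

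Among transcripts lower in DBA/2J, *Zfp125*, a zinc finger gene, was at 8.21 units in C57BL/6J and at 4.49 in DBA/2J, the lowest value of all 37 arrays. Its strains ran from 4.71 in BXD103 through 8.26 to 9.04 in BXD68, and 15 stood near DBA/2J, 20 near C57BL/6J and none in a gap of 2.45 units. *Tmem45b*, a transmembrane protein, was far brighter, at 13.01 and 10.62, with strains from 9.51 to 13.97, 23 and 12 on the sides and an empty stretch of 1.77 units. The predicted transcript *LOC100503226* was at 10.97 and 7.68, with 16 and 19 strains on the sides and a gap of 2.29. *A130040M12Rik* had the largest drop of a named gene, from 11.16 to 6.58, and its strains extended past both parents, from 5.78 in BXD69 to 12.48 in BXD90. *Fam55d* was at 9.05 and 6.70, with 1 strain in the central part.

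**Figure D2:**
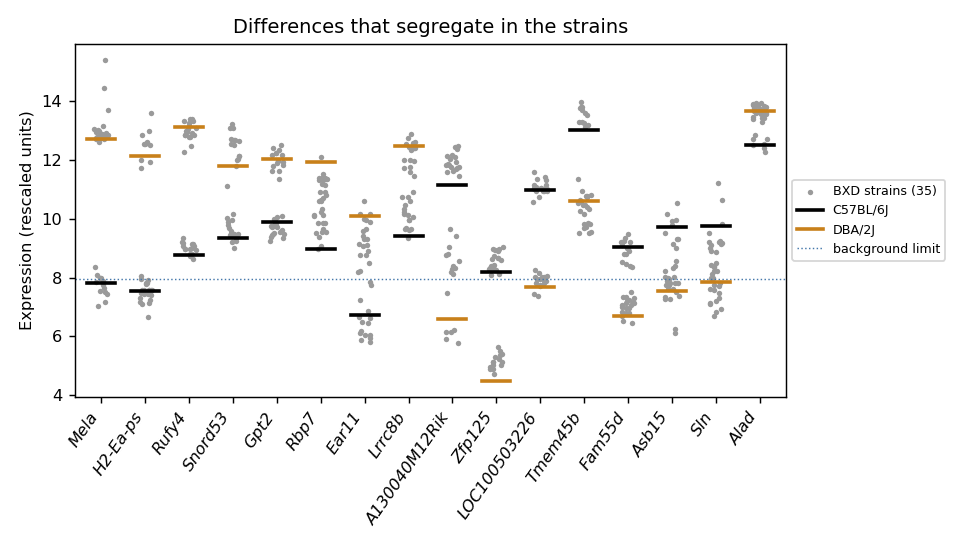
Points are the 35 BXD strains and bars the 2 parents, in rescaled units on the y axis, for 15 inherited differences and for *Alad*, which missed the rule by 1 strain. The dotted line is the background limit of 7.94 units. Strains of *Mela*, *H2-Ea-ps*, *Rufy4*, *Zfp125* and *Tmem45b* fell into 2 clusters, whereas those of *Rbp7*, *Ear11* and *Sln* filled the interval.

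The strain rule left out some differences whose strains were separated. *Alad*, an early enzyme of heme synthesis whose gene is known to be duplicated in DBA/2J mice, was at 12.52 units in C57BL/6J and 13.69 in DBA/2J. The strains ran from 12.28 in BXD79 through 13.60 to 13.94 in BXD49, with 28 near DBA/2J, 7 near C57BL/6J and none in the central part, so *Alad* fell 1 strain short. *Hdhd3*, a phosphatase-like gene next to *Alad* in the annotation, was at 8.21 and 9.26 with the same split of 28 and 7, and all 35 strains lay on the same parent's side for both genes. Just inside the rule was *Slc2a5*, the fructose transporter GLUT5, at 10.80 and 9.47 with 27 and 8 strains on the sides. None of the other 9 heme genes measured was 1 unit apart. The erythroid form of the first enzyme, *Alas2*, was at 7.54 and 8.21, and *Alas1* at 12.01 and 11.79.

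A few more inherited differences are given as examples. *Mc2r*, the receptor for adrenocorticotropic hormone, was at 7.97 units in C57BL/6J and 9.02 in DBA/2J, with strains from 8.09 to 9.39. Its accessory protein *Mrap*, which carries the receptor to the cell surface, differed the other way, at 11.80 and 10.58 with strains from 10.36 to 11.90. For *Mc2r* 15 and for *Mrap* 17 strains lay in the central part. *Lpin1*, the phosphatidate phosphatase lipin 1, was at 13.87 and 12.67, with C57BL/6J above all 35 strains, whose highest was 13.82 in BXD68. *Ppp1r1a*, an inhibitor of protein phosphatase 1, was at 11.68 and 9.80 with strains from 9.16 to 11.58. *Ephx1*, an epoxide hydrolase of drug metabolism, was at 9.94 and 11.26. *Xaf1*, an interferon-induced apoptosis factor, was at 8.98 and 10.21 with no strain in the central part, 26 beside DBA/2J and 9 beside C57BL/6J. *Pttg1*, the securin of chromosome segregation, was at 9.89 and 8.63, with 16 and 19 strains on the sides and a gap of 1.21 units. Of these 7 genes *Xaf1* and *Pttg1* had strains in 2 clusters, and the others had strains throughout the interval. The genes of this paragraph were chosen after their values were seen.

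*Sln* and *Asb15* are transcripts of muscle. *Sln*, which encodes sarcolipin, a regulator of the calcium pump, was at 9.77 units in C57BL/6J and 7.84 in DBA/2J, with strains from 6.70 in BXD65 to 11.21 in BXD56. *Asb15* was at 9.71 and 7.55 with strains from 6.13 in BXD95 to 10.54 in BXD97. Of 16 skeletal muscle genes 15 were lower in DBA/2J, by a median of 0.20 units, and none by 1 unit. The lowest strain for the mean of these muscle genes was BXD65 and the highest BXD97. The part of muscle tissue in the *Sln* and *Asb15* differences was not tested. In pooled bulk tissue, fewer cells of a type and less RNA per cell cannot be told apart.

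Small RNA genes were among the differences. Of 4 microRNA genes past 1 unit, 2 had sequences in the RefSeq tables, which follow the mouse assembly GRCm38.p6. The probe sets read the transcript of the microRNA gene, not the mature microRNA. The mature sequences are given 5′ to 3′ with bases 2 to 8, the seed that pairs with target transcripts, in capitals, since the seed tells which targets a change could reach. The first lies on the plus strand at chr13:109903819-109903840, and the arms of the second on the plus strand at chr16:13453855-13453877 and chr16:13453895-13453916.
mmu-miR-1904: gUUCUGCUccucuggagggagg
mmu-miR-365-1-5p: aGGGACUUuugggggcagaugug
mmu-miR-365-3p: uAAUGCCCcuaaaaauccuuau
*Mir1904* was at 8.97 units in C57BL/6J and 10.11 in DBA/2J, with strains from 8.41 in BXD65 through 9.88 to 11.23 in BXD62, 21 of them on the DBA/2J side and 3 in the central part. *Mir365-1* was at 10.09 and 9.00, with strains from 8.77 through 9.43 to 10.07 and C57BL/6J above them all. miR-365 is transcribed in a cluster with miR-193b that has been studied in the differentiation of brown adipocytes. The 3 seeds differ from one another.

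Neighbouring inherited genes mostly had the same strains on the same parent's side. Of the 164 inherited genes, 2 that were also raised in BXD70, a class described further on, were left out here. Of the others, 149 could be placed in the gene order of GRCm38.p6, and 43 pairs followed each other within 10 genes. Of these, 32 pairs were a single run on chromosome 7, which held 38 inherited genes. The run comprised 33 genes of the vomeronasal type 1 receptors, sensory receptors of the vomeronasal organ that are not known to act in fat. All 33 were lower in DBA/2J, by 1.15 to 2.77 units with a median of 2.29, as *Vmn1r127* was at 10.04 in C57BL/6J and 7.27 in DBA/2J. Every gene of the run lay above the background limit in C57BL/6J and 5 did in DBA/2J. Between 12 and 23 strains were on the DBA/2J side, and neighbours in the run had 24 to 35 strains on the same side. The members are near-identical copies, and the probes cannot be taken to read 1 gene each, so the run is better read as 1 signal than as 33. Over all probe sets, 61 of 236 with a name of this family were past 1 unit, every one lower in DBA/2J.

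The other 11 neighbouring pairs had 17 to 35 strains on the same side, with a median of 27. For 9955 pairs of inherited genes on different chromosomes the median was 18, and 95% of them lay between 11 and 25. *Gp49a* and *Lilrb4*, adjacent genes of immune receptors on chromosome 10, shared the side in 33 strains. They were at 7.13 and 9.74 in C57BL/6J and at 8.20 and 11.08 in DBA/2J, and they too are close copies. *Gm3893* and *Gm13298* on chromosome 4 shared the side in all 35 strains, with *Gm3893* at 9.91 and 8.19 and 26 strains on the DBA/2J side. *Gbp11* and *Lrrc8b*, next to each other on chromosome 5, shared it in 27. *Atp6v0d2* and *Ttpa* on chromosome 4 shared it in 17, no more than genes of different chromosomes.

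Textbook variants between these parents were looked up by name. *Glo1*, the glyoxalase that is duplicated in DBA/2J mice, was at 10.28 units in C57BL/6J and 10.96 in DBA/2J, with strains from 9.74 to 11.16. *Myo5a*, the site of the dilute coat colour mutation of DBA/2J, was at 10.26 and 11.17, higher in the carrier. The 14 strains on the C57BL/6J side for *Myo5a* were the same 14 as for *Mela*, so the 2 cannot be taken as separate signals. *Gpnmb*, which has a premature stop codon in DBA/2J, was at 8.77 and 9.39, and its strains ranged from 7.72 in BXD101 to 11.84 in BXD69. *Nnt*, the mitochondrial transhydrogenase of which C57BL/6J lacks several exons, was at 9.27 and 9.32, and whether its probes lie within those exons was not examined. *Ifi202b*, an interferon-induced gene that C57BL/6J is known to express poorly, was at 5.26 and 7.36, below the background limit in both. Of 19 such genes measured, 3 were counted as at least 1 unit higher in DBA/2J, namely *Mela*, *H2-Ea-ps* and *Alad*, and none as lower.

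The second class of differences was shared with 1 BXD strain. In 56 of the 256 probe sets at least 1 unit higher in DBA/2J (21.9%), BXD70 was the highest of the 35 strains and at least 1 unit above the median of the others, which held for 0.816% of all probe sets. These 56 probe sets stood for 51 genes. Their parental differences ran from 1.01 to 6.39 units with a median of 2.51, and BXD70 exceeded DBA/2J in 53. C57BL/6J lay within the range of the other 34 strains at all 56, while DBA/2J lay above those 34 strains at 54. At 37 of the 56 C57BL/6J lay within the background, and at 40 the median of the other 34 strains did. Those 37 passed the background limit through DBA/2J alone, so their differences are distances from the background. Of the 56, 2 also met the rule for an inherited difference.

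Many of the 51 genes are known as liver genes: 16 were in a list of plasma proteins, 8 in a list of liver enzymes and transporters and 5 in a list of major urinary proteins. Plasma proteins are made by hepatocytes and released to the blood, and the major urinary proteins, products of the *Mup* genes, are made by the liver of male mice and passed in urine. *Serpina1c*, an alpha-1 antitrypsin gene, was at 5.72 units in C57BL/6J, 12.11 in DBA/2J and 13.44 in BXD70, and the strain median was 6.06. *Gc*, the vitamin D binding protein, was at 7.57, 11.52 and 13.28 in the same order, with a strain median of 7.22. *Mup3* was at 7.27, 11.63 and 13.46, and *Mup20* at 7.95, 11.21 and 10.26, whereas BXD70 exceeded DBA/2J in 49 of the 51 genes. *Apoa1* and *Apob*, the apolipoproteins of high and low density lipoprotein, were at 8.23 and 7.69 in C57BL/6J and at 10.81 and 10.22 in DBA/2J. *Fgb*, a fibrinogen chain, was at 6.75, 9.02 and 10.90. The *Serpina1* and *Mup* genes are families of near-identical copies whose signals may be shared. Not every copy was raised. *Serpina1a* and *Serpina1b*, below the background limit in both parents, differed by 0.154 and 0.096 units. *Mup4*, *Mup5* and *Mup21*, also below it, differed by 0.525, -0.096 and -0.037. Sharing of signal between copies was not tested.

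Of 30 plasma protein genes 17 were at least 1 unit higher in DBA/2J and none lower, with a median difference of 1.66 units. Of 29 liver enzymes and transporters measured, 8 were at least 1 unit higher and none at least 1 unit lower, with a median of 0.86. *Tat*, which degrades tyrosine, was at 7.41 in C57BL/6J and 9.31 in DBA/2J, *Ugt2b1*, a glucuronosyltransferase, at 7.27 and 9.05, and *Cps1*, the entry enzyme of the urea cycle, at 7.97 and 9.21. Of 8 *Mup* genes 5 were at least 1 unit higher, with a median of 3.14 over all 8. None of 8 kidney genes was 1 unit apart, and *Umod*, the uromodulin of the renal tubule, was at 7.36 and 7.62. The mean of the 30 plasma protein genes was 7.94 units in C57BL/6J, 9.83 in DBA/2J and 11.02 in BXD70, and the lowest strain was BXD99 at 7.69. Genes that both brown fat and liver express differed less: *Trf*, transferrin, was at 12.31 and 12.40, *Hp*, haptoglobin, at 13.39 and 13.24, and *Pck1*, the gluconeogenic carboxykinase, at 14.50 and 14.95. *Cyp7a1*, the rate-limiting enzyme of bile acid synthesis, was at 5.94 and 7.05, below the background limit. The part of liver tissue in the other differences of DBA/2J was not tested.

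**Figure D3:**
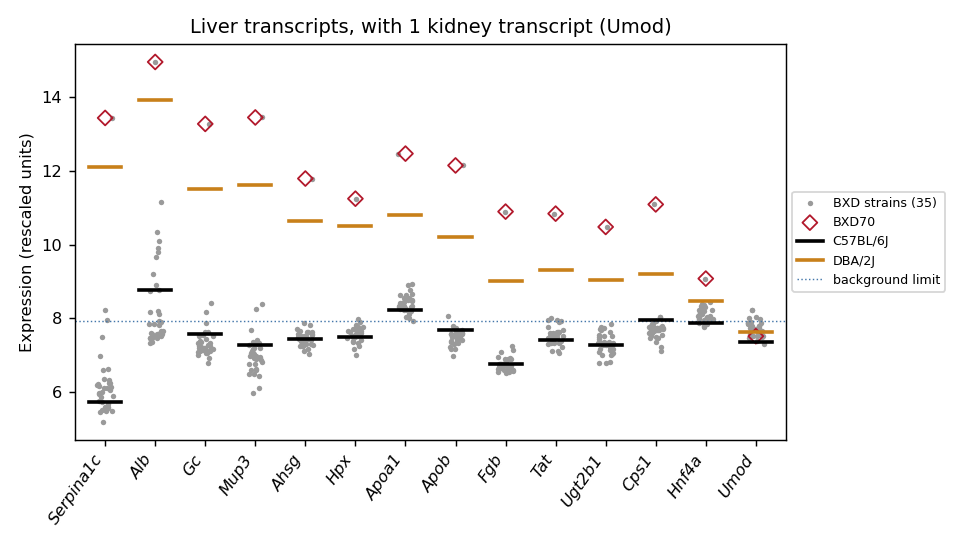
Expression in rescaled units (y axis) of 13 liver transcripts and of *Umod*, a kidney transcript, in the 35 BXD strains (points), the 2 parents (bars) and BXD70 (diamonds). BXD70 and DBA/2J stood above all other strains for each liver transcript, the margin being small for *Hnf4a* (8.46 in DBA/2J), and neither did for *Umod*.

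Promoters of the 51 shared genes were read for the half-site of the liver factor HNF1, GTTAAT on one strand or ATTAAC on the other, in the 250 bases before each start. Of the 51 genes 34 had a promoter in the RefSeq table, and 8 of them (23.5%) held the motif, against 1762 of 27025 promoters (6.52%) in the table. The 4 genes with the largest differences among the 8 are shown, each as 60 bases in the gene's own direction with the motif in capitals. They lie at chr12:103904951-103905010 on the minus strand, chr5:90460810-90460869 on the plus strand, chr5:89457918-89457977 on the minus strand and chr6:121838441-121838500 on the plus strand of GRCm38.p6, in the order given. A match is a description of the letters and does not show binding.
Serpina1c: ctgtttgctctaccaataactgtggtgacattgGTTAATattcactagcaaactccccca
Alb: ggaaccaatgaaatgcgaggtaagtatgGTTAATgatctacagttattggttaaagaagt
Gc: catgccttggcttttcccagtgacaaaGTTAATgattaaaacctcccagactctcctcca
Mug1: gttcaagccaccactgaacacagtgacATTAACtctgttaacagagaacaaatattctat
The other 4 with the motif were *Pzp*, *Fgb*, *Pcbd1* and *Cyp2d26*, which were 3.49, 2.26, 1.45 and 1.05 units higher in DBA/2J than in C57BL/6J.

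The remaining 140 probe sets, 66 higher and 74 lower in DBA/2J, had fewer than 8 strains on 1 side and no share in the BXD70 pattern. C57BL/6J lay outside the range of the 35 strains at 84 of them, above it at 44 and below it at 40, and DBA/2J at 20. Over all probe sets C57BL/6J lay outside that range at 6.71% and DBA/2J at 2.16%. The 140 were selected for few strains on 1 side, which favours a parent outside the strains, so their shares cannot be set against these. Counted by gene, C57BL/6J was outside for 33 of the 50 remaining differences and DBA/2J for 6. The probe sets shared with BXD70, in most of which DBA/2J lay above the other strains, are not among these. *Ppp1r3b*, a subunit that targets protein phosphatase 1 to glycogen, was at 12.42 units in C57BL/6J and 10.79 in DBA/2J, and *Sorl1*, a sorting receptor, at 10.86 and 9.42, with C57BL/6J above all strains for both. *Cntfr*, the receptor for ciliary neurotrophic factor, was at 10.27 and 11.63, and *8430408G22Rik* at 9.25 and 10.95, with C57BL/6J below all strains. *Trappc6a*, a vesicle tethering subunit, was at 9.69 and 8.27, with DBA/2J below all strains, and *Zmynd17* at 7.45 and 9.08, with neither parent outside them.

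At 20 of the 140 probe sets DBA/2J lay outside the strains. *Serpina3k*, a serine protease inhibitor of liver, was at 6.43 units in C57BL/6J and 8.63 in DBA/2J, above all strains, whose highest was 7.37 in BXD75. *Lcn13*, a lipocalin, was at 5.62 and 8.49 with strains from 5.14 to 6.53. BXD70 lay among the other strains for both. *Ctsk*, the collagen-degrading cathepsin K, was at 8.42 and 9.76 with strains from 7.74 to 9.55, and *Spp1*, osteopontin, at 7.48 and 8.72 with strains from 7.23 to 8.30. *Cyp2b10*, a cytochrome P450 of xenobiotic metabolism, was at 9.66 and 7.68, below all strains, which spread from 7.86 to 12.14. For *Stab2*, a scavenger receptor of sinusoidal endothelium, DBA/2J did not lie outside the strains. It was at 7.08 and 10.35, and 3 strains, BXD68, BXD45 and BXD69, lay on the DBA/2J side, the highest at 10.67 in BXD68, while the other 32 lay on the C57BL/6J side.

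Genes of fuel use were among those in which C57BL/6J stood apart. Lipogenic transcripts were higher in C57BL/6J than in DBA/2J for 11 of 12 genes, with a median difference of -0.58 units and 2 genes past 1 unit. *Acly*, the citrate lyase that supplies acetyl-CoA for fatty acid synthesis, was at 15.15 in C57BL/6J and 13.93 in DBA/2J, and the strains ran from 12.51 in BXD85 through 13.61 to 15.14 in BXD87. *Scd2*, a stearoyl-CoA desaturase, was at 14.03 and 12.85 with strains from 10.61 through 11.45 to 13.99. *Srebf1* and *Mlxipl*, the transcription factors SREBP1 and ChREBP that drive lipogenesis, were at 11.43 and 13.41 in C57BL/6J and at 10.77 and 12.87 in DBA/2J. C57BL/6J lay above all 35 strains for 6 of the 12 genes. *Fasn* and *Scd1*, the brightest of the list, did not share this, at 15.91 and 15.84 in C57BL/6J and 15.80 and 15.88 in DBA/2J. DBA/2J was on the high side too, above the strain median for all 12 genes. The list mean of DBA/2J lay above 29 strains and that of C57BL/6J above all 35.

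Cholesterol synthesis genes leaned the same way, in a list drawn up after their values were seen. Of 16 genes 14 were lower in DBA/2J, with a median of -0.54 units and 2 past 1 unit. DBA/2J also lay above the strain median for 14 of the 16. Its list mean lay above 29 strains and that of C57BL/6J above 34. *Sc5d*, a late enzyme of the pathway, was at 12.46 in C57BL/6J and 11.38 in DBA/2J with strains from 10.72 to 12.09, and *Acss2*, the acetyl-CoA synthetase, at 13.38 and 12.28 with strains from 11.22 to 13.36. *Insig1*, the sterol sensor that holds SREBP back, was at 14.50 and 13.88. *Hmgcs1*, an early synthase of the pathway, was at 12.54 and 12.83, in the opposite direction.

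Transcripts that fasting is known to raise were mostly lower in C57BL/6J. In a list of 16, also drawn up after their values were seen, 13 were higher in DBA/2J, with a median of 0.51 units and 2 past 1 unit, and C57BL/6J lay below all 35 strains at 6. *Pdk4*, the kinase that shuts off pyruvate oxidation, was at 15.01 in C57BL/6J and 15.30 in DBA/2J with strains from 15.20 to 15.62. *Cpt1a*, the carnitine transferase, was at 9.96 and 10.95 with strains from 10.06 to 11.41, and *Angptl4*, the fasting-induced inhibitor of lipoprotein lipase, at 12.42 and 0.58 units higher in DBA/2J, with strains from 12.65 to 13.76. *Ehhadh*, a peroxisomal oxidation enzyme, was at 11.15 and 12.61, and 30 of 35 strains lay on the DBA/2J side. Enzymes of mitochondrial fatty acid oxidation hardly differed, as *Acadm* was at 15.10 in both parents. Of the 12 in that list, 1 was past 1 unit.

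**Figure D4:**
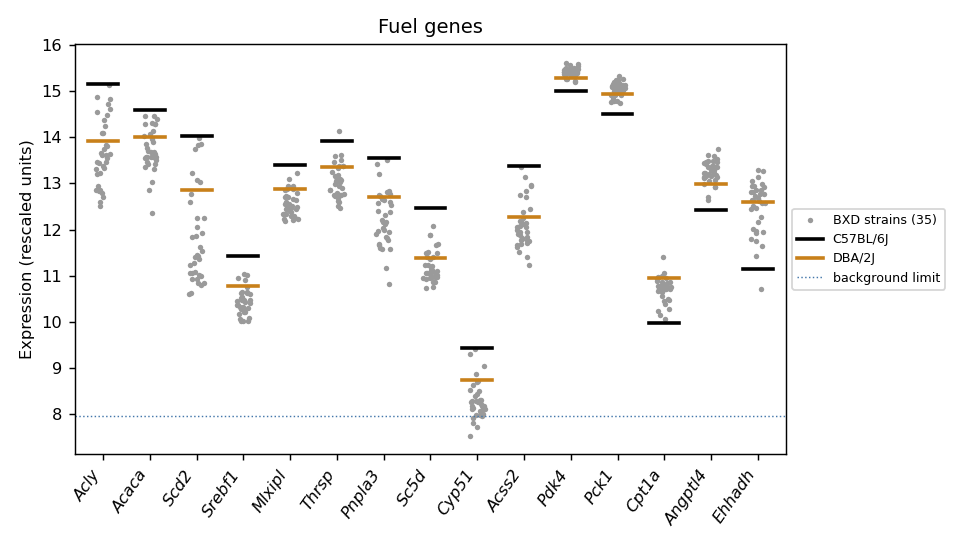
Expression in rescaled units (y axis) of selected genes of fatty acid and sterol synthesis (*Acly* to *Acss2*) and of the fasting response (*Pdk4* to *Ehhadh*) in the 35 strains (points) and the parents (bars). The selection favours genes in which C57BL/6J stood apart. In the full lists C57BL/6J lay above all strains for 6 of 12 lipogenic and 5 of 16 cholesterol genes. It lay below all strains for 6 of 16 fasting genes. Among the genes shown, C57BL/6J lay above all strains in the first group, at 15.15 for *Acly*, apart from 1 higher strain for *Thrsp*. It lay below all strains in the second, at 15.01 for *Pdk4*, apart from 1 lower strain for *Ehhadh*. DBA/2J lay among the strains throughout, and above their median in the first group.

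DBA/2J had higher levels of macrophage transcripts. Of 11 macrophage genes 10 were higher and 4 were past 1 unit, with a median of 0.68. The mean of the list was 8.87 units in C57BL/6J and 9.58 in DBA/2J, and the strains spread from 8.60 in BXD87 to 10.16 in BXD61, so both parents lay among the strains. *Ctss*, the cathepsin S of antigen processing, was at 8.83 and 10.22 with strains from 8.11 in BXD43 through 9.15 to 10.88 in BXD61. *Mpeg1*, perforin-2, was at 8.03 and 9.34. *Itgam*, the CD11b chain, was at 8.46 and 8.47, so the difference did not extend to every member.

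A list of 12 genes of lipid-laden macrophages, drawn up after their values were seen, was higher in DBA/2J throughout, by a median of 1.24 units with 8 genes past 1 unit. *Mmp12*, the macrophage elastase, was at 7.71 in C57BL/6J and 10.10 in DBA/2J with strains from 7.61 in BXD43 through 8.67 to 10.51 in BXD85. *Atp6v0d2*, a lysosomal proton pump subunit, was at 6.08 and 8.22, *Itgax*, the CD11c chain, at 7.10 and 8.97, and *Cybb*, the oxidase subunit of phagocytes, at 9.06 and 10.69. Of the 8 genes past 1 unit, *Mmp12*, *Atp6v0d2*, *Itgax*, *Spp1* and *Clec7a* lay below the background limit in C57BL/6J. They passed it through DBA/2J alone, so their differences are distances from the background. The others, *Trem2*, *Ctsk* and *Cybb*, lay above that limit in both parents. BXD61 was the highest strain for *Atp6v0d2* at 9.44, for *Itgax* at 9.11 and for *Cybb* at 11.17. The list mean was 8.27 in C57BL/6J and 9.56 in DBA/2J against 8.14 to 9.74 in the strains, and 33 of the strains lay below DBA/2J.

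Markers of white fat were mixed, with 3 of 11 at least 1 unit higher in DBA/2J and 2 at least 1 unit lower. By any amount 7 were higher and 4 lower. The 3 include *Trem2*, 1.20 units higher, which is also a member of both macrophage lists. *Retn*, resistin, was at 13.40 units in C57BL/6J and 12.14 in DBA/2J with strains from 10.11 in BXD65 through 11.90 to 13.01 in BXD55, so C57BL/6J was above them all. *Cfd*, adipsin, was at 12.80 and 11.15 with strains from 10.63 to 13.03. *Sncg*, gamma-synuclein, was higher in DBA/2J, at 11.43 and 12.90, as was *Mest*, a gene that follows fat expansion, at 8.09 and 9.50 with strains from 8.11 to 11.37. *Lep*, leptin, was at 12.18 and 11.94 and *Adipoq*, adiponectin, at 11.44 and 11.37, within the spread of the strains.

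Other lists held few genes or none past 1 unit. Of all gene symbols 0.608% were higher and 0.458% lower by that much, so a count of 0 in a list this short is no result about the list. None of 11 thermogenic genes was 1 unit apart, and their median difference was -0.02 units, beside 0.02 for all genes. *Dio2*, the deiodinase that activates thyroid hormone, was at 10.61 and 9.80 and *Ppargc1a*, the coactivator of mitochondrial genes, at 12.32 and 11.72, both within the strain range. No clock gene of 12, no lipolysis gene of 12, no heat shock gene of 10 and no interferon-induced gene of 12 reached 1 unit, and the medians were -0.03, 0.18, 0.07 and -0.15. Nor did any of 4 erythroid, 11 lymphocyte, 10 immediate early or 5 sex-linked genes. Of 10 interferon-induced GTPases *Irgm2* alone was past 1 unit, at 10.08 and 9.07, and of 9 histocompatibility genes *H2-Ea-ps* alone. Of 7 targets of the aryl hydrocarbon receptor, *Cyp1a1* alone was past 1 unit, at 8.89 in C57BL/6J and 7.82 in DBA/2J. Its strains ran from 7.65 in BXD84 through 8.15 to 9.45 in BXD70, with 28 on the DBA/2J side. The receptor itself is known for a high affinity allele in C57BL/6J and a low affinity allele in DBA/2J, and *Cyp1b1*, another target, was lower in C57BL/6J, at 8.15 and 8.79. Of 16 glutathione transferases only *Gstt2* was past 1 unit, at 8.82 and 10.37, with C57BL/6J below all strains.

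**Figure D5:**
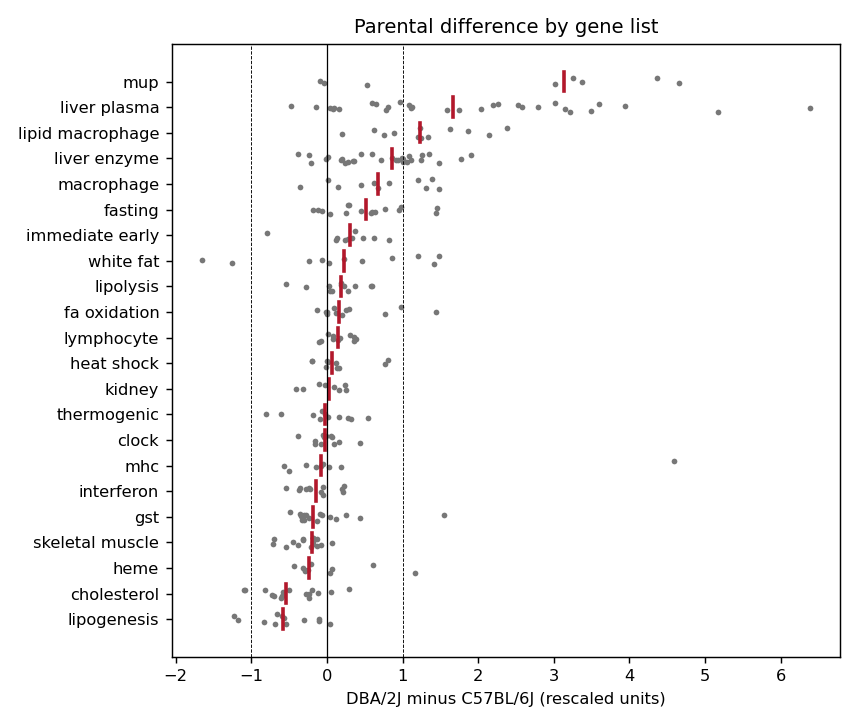
Parental difference, DBA/2J minus C57BL/6J, in rescaled units (x axis) for each measured gene (points) of 22 gene lists, ordered by their medians (red bars). Dashed lines mark 1 unit. Major urinary protein, liver and macrophage lists lay to the right and cholesterol and lipogenesis lists to the left, with medians from 3.14 to -0.58 units. The lists named cholesterol, fasting and lipid macrophage were drawn up after their values were seen.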

How the data were processed

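Brown adipose tissue RNA of 37 strains, pooled from about 5 mice each, was measured on Affymetrix MoGene 2.0 arrays, 1 per strain, from 100 ng of RNA and 5500 ng of cDNA. The authors deposited 1 table of 41345 probe sets whose values are scores, each array rescaled to an average of 8 with an SD of 2. Affymetrix Expression Console is named in the submitters' processing notes, and the log base and genome build are not given in the sources used here. Rescaling can stretch or shrink an array, so quantile normalization and centring were tried as alternatives.

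Array controls (190 probe sets) were left out, and columns were matched to strains by name with 0 columns of values unused. Parental differences are DBA/2J minus C57BL/6J. With 1 array per parent no test was possible, and the spread over 35 BXD strains and 1128 olfactory receptor probe sets stands in its place. Arrays have no read depth, and their number limits the precision. Variants under the probes, which can change hybridisation without a change in RNA, were not examined.

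Genes were represented by their brightest probe set. The rule for named genes took the 10 largest differences in each direction in each class, and members of the gene lists that were past 1 unit or brightest. Not all of these are printed. *Gpt2*, *Tmem45b*, *Fam55d*, *Sln*, *Asb15*, *Hdhd3*, *Slc2a5*, several other list members outside the rule, the microRNAs and the genes said to be so were chosen after their values were seen. The counts include a few genes whose own values are not reported here. The members and lists were chosen with earlier results of these data known. Gene order and sequences are from RefSeq for GRCm38.p6, in which 23429 of 24657 symbols were placed. Counting rules were tested on simulated data. Python 3.11.15, numpy 2.4.6, pandas 2.3.3, scipy 1.17.1 and matplotlib 3.10.9 were used.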

Additional observations from a re-analysis of the deposited data

How the results depend on the processing

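The counts depended on the size limit, the background limit, the unit counted and, for inherited differences, the strain rule, and hardly on the scaling of the arrays. Of 590 probe sets at least 1 unit apart, 584 remained in number after quantile normalization and 596 after centring. A limit of 0.5 units gave 2732 and of 2 units 145, no background limit gave 1003 (425 higher and 578 lower), 1 probe set per gene 263 and the average over all probe sets of a gene 252. Inherited differences numbered 396 as reported and 1698, 103, 679, 164 and 159 in the same order. They numbered 455 with at least 5 strains on each side and 270 with at least 12. Counting only strains outside the central part gave 280. The shared class with BXD70 fell from 56 to 33 probe sets at 2 units. Separated probe sets numbered 91 as reported, 37 with 1 probe set per gene and 57 with at most 1 strain in the central part. These changes follow from the number of features that each rule admits. Leaving out 1 BXD strain at a time gave 386 (without BXD70) to 394 (without BXD69) inherited differences. Among values of single genes 1190 of 1194 moved by less than the spread of the strains, and 81 of 81 medians of gene lists stayed within it. Of the single-gene differences of at least 1 unit, 0 changed sign. Sign changes of smaller differences were not counted. No paired analysis was possible because each strain has 1 array and no replicate numbers. What limits the comparison is the single pooled array per parent.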

Other observations

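For some genes both parents lay away from the strains together, which the parental difference does not show. *Hsph1*, a heat shock chaperone, was at 10.47 units in C57BL/6J and 10.28 in DBA/2J, and all 35 BXD strains were lower, from 8.49 in BXD81 to 10.04 in BXD80. The mean of 10 heat shock genes was 10.99 in C57BL/6J and 11.15 in DBA/2J, above 33 and 34 of the strains. *Per1*, a clock gene, was at 10.33 and 10.27, and 1 of 35 strains was lower than either parent. The cause of these values was not tested.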
